A study of Mus musculus with 108 samples.

Results

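The 10 genes described here write, maintain, remove or guard DNA methylation in the oocyte and were followed in single mouse oocytes with and without Exosc10, which encodes the catalytic EXOSC10 subunit of the nuclear RNA exosome. They are Dnmt1, Uhrf1, Dnmt3a, Dnmt3l, Dnmt3b, Kdm1b, Tet3, Dppa3, Trim28 and Zfp57. They were chosen by name for their roles, with earlier results of these data known, and all 10 were found among the 55573 gene identifiers of the count files. Of 108 libraries in the series, 86 were used, each made from 1 oocyte, and they came from 23 females. PolyA libraries were primed and captured by oligo-dT beads, so they report polyadenylated RNA. RiboMinus libraries were made with the Ovation Solo system and random hexamer priming, independently of a poly(A) tail.

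Each group joins a library type, a stage and a genotype. The genotypes were control (no further genotype was given in the labels) and oocyte-specific knockout of Exosc10, called cKO. No strain, animal age or driver of the deletion was given, so these are limits on how the model can be described. Full-grown oocytes arrested in prophase are named GV for their germinal vesicle, and GV3h oocytes had been held for 3 h in culture. Both were cultured in M2 medium, while metaphase II (MII) eggs were dissected from oviducts. The polyA groups held 7 GV control oocytes of 2 females, 15 GV cKO oocytes of 2 females, 8 GV3h control oocytes of 3 females, 11 GV3h cKO oocytes of 3 females, 8 MII control eggs of 3 females and 15 MII cKO eggs of 3 females. The RiboMinus groups held 8 GV control oocytes of 2 females, 7 GV cKO oocytes of 2 females, 3 MII control eggs of 1 female and 4 MII cKO eggs of 2 females. Every female gave oocytes of 1 group. The female was therefore the replicate, and counts of her oocytes were summed before any test.

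PolyA libraries held 4638718 to 8735914 counts in genes and RiboMinus libraries 12319658 to 62675760. The deepest was an MII cKO egg of female V1166, which supplied most of the counts of that female. Exosc10 itself matched the genotype labels: it lay between 0 and 4.44 CPM (a gene's count relative to the total of its library, TMM-scaled) in polyA cKO oocytes and between 43.0 and 166 CPM in controls. In RiboMinus libraries it lay between 0.446 and 8.29 CPM in cKO oocytes and between 84.9 and 162 CPM in controls. All 12 oocyte markers examined, such as Gdf9 and Zp3, had counts in every group. The 12 granulosa and cumulus markers summed to between 12.7 and 127 CPM in any oocyte, with Cyp19a1 the highest in each group, and between 1 and 5 of them were at 0 throughout a group. Their sum was higher in polyA MII eggs (median 82.5 CPM in cKO and 97.3 in controls) than in polyA GV oocytes (39.8 and 46.9). In RiboMinus libraries its median was 40.3 CPM in GV controls, 17.5 in GV cKO oocytes, 22.2 in MII controls and 27.5 in MII cKO eggs. Its part in the stage and genotype differences below was not tested. Although spike-in RNA was added to the polyA lysates, the files held 0 lines of it, so all levels are shares of a library and not amounts per oocyte.

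DNA methylation is laid down during oocyte growth by DNMT3A, which needs its catalytically inactive partner DNMT3L, and the histone demethylase KDM1B clears histone H3 lysine 4 methylation so that imprinted regions can be methylated. DNMT1 copies methylation after replication, guided by UHRF1, which recognises hemimethylated DNA. After fertilization TET3 oxidises methylcytosine in the zygote, DPPA3 (also called STELLA) protects the maternal genome from that loss, and ZFP57 with its corepressor TRIM28 keeps imprints methylated. These proteins are largely translated from maternal messages. Those messages are stored in the growing oocyte, and some gain or lose poly(A) tail length when meiosis resumes, so the tail can change what an oligo-dT library captures.

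The 10 messages covered a wide range of levels. Compared per kilobase of exon in GV controls, polyA levels ran from Dppa3 at 1951 CPM per kb, through Dnmt1 at 283, Zfp57 at 273 and Uhrf1 at 256, to Tet3 at 64.6, Dnmt3l at 42.3, Kdm1b at 32.6, Trim28 at 17.7, Dnmt3a at 17.5 and Dnmt3b at 4.38. The ranges of females overlapped within the sequence Dnmt1, Zfp57, Uhrf1, between Dnmt3l and Kdm1b, and between Trim28 and Dnmt3a. In RiboMinus GV controls the order began with Zfp57 at 611 CPM per kb, Dnmt1 at 476 and Dppa3 at 438, followed by Tet3 at 168, Uhrf1 at 105, Kdm1b at 46.0, Trim28 at 45.4, Dnmt3l at 26.0, Dnmt3a at 13.4 and Dnmt3b at 3.51. There the ranges of females overlapped between Dnmt1 and Dppa3 and between Kdm1b and Trim28. Dnmt3b was last in both. Its lowest count in a polyA oocyte was 71, so it was measured far above 0, but reads of its tandem copy Dnmt3c can be split between the genes and its values are uncertain for that reason. Lengths are unions of annotated exons (16642 bases for Dnmt3a and 16695 for Tet3), so a gene whose oocyte transcript is shorter is understated on this scale.

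Because the library types differ in their dependence on the poly(A) tail, the 3′ ends are shown for the 8 members with a match to the letters below. They are 30-base windows from the last 100 bases of the longest coding transcript in GENCODE M21 (GRCm38), written 5′ to 3′ on the gene's strand. Capitals mark TTTTAT or TTTTAAT, the letters of the cytoplasmic polyadenylation element, or else AATAAA or ATTAAA, the letters of the polyadenylation signal. In Tet3 and Uhrf1 adjoining matches run together. In Dnmt1 and Dnmt3a the polyadenylation signal starts 22 and 28 bases from the transcript end. The printed windows stop inside it, at bases 19 and 26 from the end, so it is not capitalised.
Dnmt1, chr9:20907227-20907256, minus strand: TTTTATatgttgtaatatttcttcaaaata
Dnmt3a, chr12:3914389-3914418, plus strand: TTTTATtttcgctataaatagagcttcaat
Tet3, chr6:83362379-83362408, minus strand: TTTTAATAAATTTTATatttattttttgca
Trim28, chr7:13030996-13031025, plus strand: ttacttctgtggatttAATAAAaacttcac
Dppa3, chr6:122630238-122630267, plus strand: atttccagaaatttgtAATAAAagcatttt
Dnmt3b, chr2:153687692-153687721, plus strand: tttacctttctggttgATTAAAgttgtatt
Uhrf1, chr17:56323451-56323480, plus strand: taacatattgcAATAAAATAAAattctggc
Zfp57, chr17:37010571-37010600, plus strand: tacccccaccccacaaAATAAAtacaattt
On the transcript strand, the first pair of motifs occurred in 3 of the 10 members (Dnmt1, Dnmt3a and Tet3) and in 16.7% of 21746 genes searched in the same way. The second pair occurred in 8 of the 10 and in 75% of genes, with Dnmt3l and Kdm1b the exceptions in this window. These are matches of letters in an annotated end, not mapped sites.

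**Figure D1:**
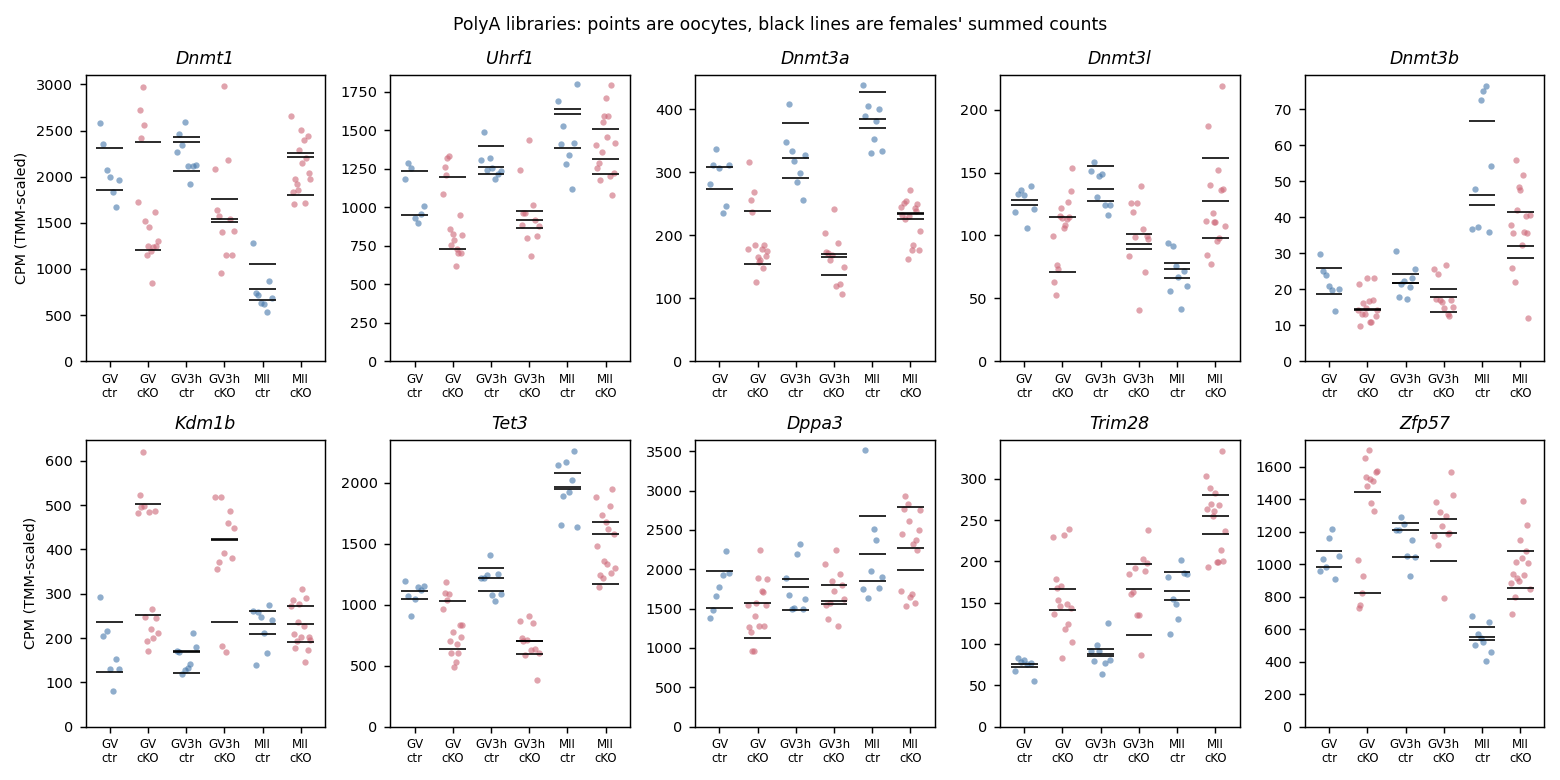
Levels of the 10 genes in polyA libraries, as CPM on linear axes that start at 0, for control (blue) and cKO (red) oocytes at GV, GV3h and MII. Points are oocytes and black lines are the females' summed counts, scaled among themselves; Dnmt1 in MII controls lies below every other polyA group's female sums, at 658 to 1054 CPM.

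The question put to the genotype comparisons was which of these messages differ in level when Exosc10 is deleted, and at which stage. Trim28 was called higher in cKO oocytes in 4 of 5 comparisons, Dnmt3a was called lower in 2, and Dnmt1 was called higher in polyA MII eggs but lower in RiboMinus MII eggs. In polyA GV oocytes 1 member was called (Trim28, higher), where 7.38% of all genes tested were called (3.47% higher and 3.91% lower). At polyA GV3h 6 members were called, 2 higher and 4 lower, against 25.2% of all genes (12.5% higher and 12.7% lower). At polyA MII 5 were called, 4 higher and 1 lower, against 18.9% of all genes (11.9% and 6.99%). In RiboMinus GV oocytes 0 members were called by edgeR, where 0.0315% of genes were called (0.0275% higher and 0.00393% lower). At an unadjusted p under 0.05 there were 2 members there, beside 3727 of 25425 genes, and DESeq2 called 1 member, beside 6.16% of genes. In RiboMinus MII eggs 3 were called, 1 higher and 2 lower, against 7.3% of genes (3.61% and 3.69%). The controls in that comparison came from 1 female, V1145, whose spread was taken to be that of the other groups. With libraries scaled by their totals in place of TMM factors, higher genes made up 74.2% of calls at polyA GV (47.0% with TMM), 70.5% at polyA GV3h (49.5% with TMM) and 65.9% at RiboMinus MII (49.5% with TMM). The median log2 fold change of the 10 genes was -0.30, -0.44 and 0.028 at polyA GV, GV3h and MII, beside 0.078, 0.067 and 0.12 over all genes. In RiboMinus libraries it was -0.16 at GV and -0.20 at MII, beside 0.042 and 0.25.

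**Figure D2:**
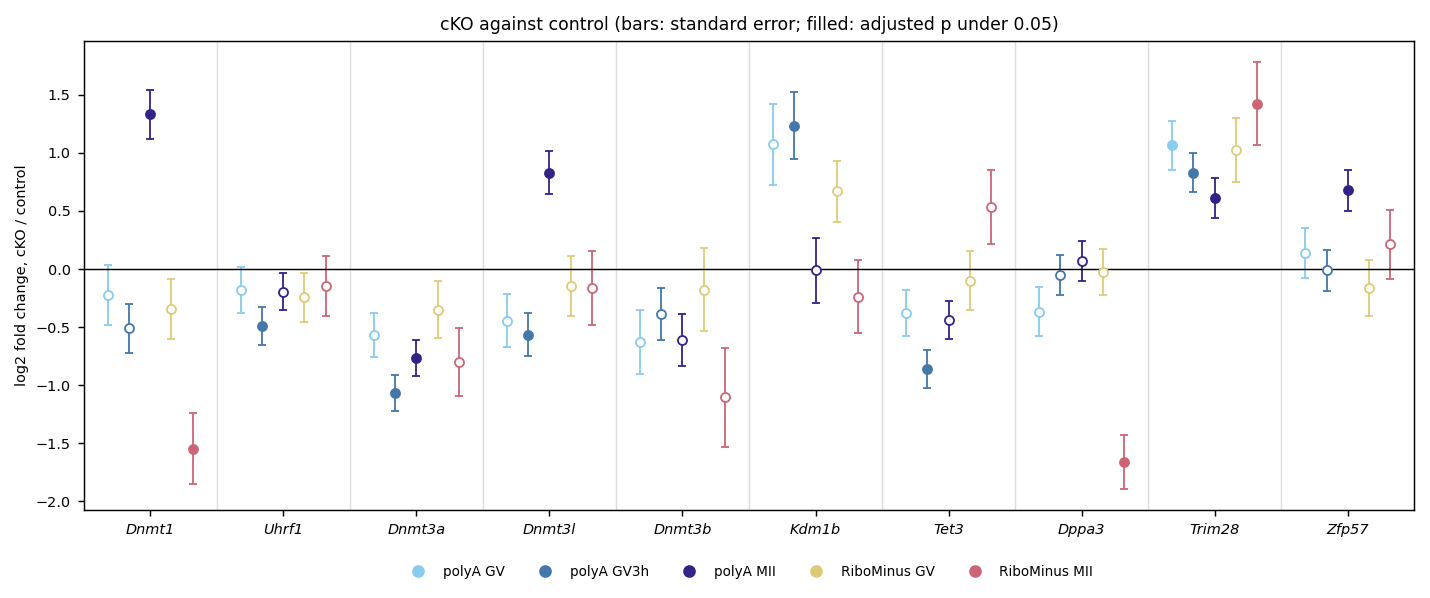
Log2 fold change of cKO over control for each gene in the 5 genotype comparisons. Bars are standard errors and filled points have an adjusted p under 0.05; Dnmt1 stands at 1.33 in polyA MII eggs and at -1.55 in RiboMinus MII eggs, while the 5 Trim28 points lie between 0.61 and 1.42.

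Dnmt1, the maintenance methyltransferase, gave opposite genotype differences in the library types at MII. In polyA MII control eggs the females' sums were 1054, 658 and 781 CPM, and in cKO eggs 2259, 1796 and 2212 CPM. Single control eggs lay between 534 and 1283 CPM (median 703) and cKO eggs between 1707 and 2653 (median 2044), so every cKO egg was above every control egg. The difference was 2.51-fold (log2 fold change 1.33, SE 0.21, adjusted p = 0.000709). In RiboMinus MII eggs the order was the reverse: the control female was at 2076 CPM and the cKO females at 560 and 860. The 3 control eggs lay between 1965 and 2143 CPM and the 4 cKO eggs between 573 and 962, again without overlap. Dnmt1 was 2.93-fold lower there (log2 fold change -1.55, SE 0.31, adjusted p = 0.0266). With the RiboMinus MII groups filtered, scaled and fitted alone the adjusted p was 0.0557. A test of the difference between the library types, added after the values had been seen, gave 2.84 on the log2 scale (SE 0.37, adjusted p = 7.15e-05). Library protocol and females differ together in it and cannot be told apart.

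At the earlier stages Dnmt1 was not called between genotypes in the fit over all groups. PolyA GV controls were at 2312 and 1861 CPM, and the cKO females stood apart from each other at 2372 (V857) and 1205 (V888). At GV3h controls were at 2372, 2429 and 2063 CPM and cKO females at 1545, 1754 and 1514, lower in each cKO female than in any control. The log2 fold change there was -0.51 (SE 0.21, adjusted p = 0.0864). It was called with the compared groups alone (adjusted p = 0.00553, where 39.7% of genes were called) and without a filter (0.0108, 13.6% of genes). In RiboMinus GV oocytes it was -0.34 (SE 0.26, adjusted p = 0.581), with controls at 3817 and 3201 CPM and cKO females at 2486 and 3050.

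Uhrf1, which brings DNMT1 to hemimethylated sites, gave smaller differences. At polyA GV3h the controls were at 1400, 1263 and 1216 CPM and the cKO females at 977, 919 and 863, below all controls. The log2 fold change was -0.49 (SE 0.16, adjusted p = 0.0353). That call did not hold when any of the 6 females was left out (V946, V983, V993, V951, V982 or V995), with adjusted p between 0.0575 and 0.122, nor with library totals in place of TMM factors (-0.26, adjusted p = 0.239). In the other 4 genotype comparisons its log2 fold change lay between -0.24 and -0.15, and none was called.

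Dnmt3a, the de novo methyltransferase of the growing oocyte, was lower in cKO oocytes. At polyA GV3h the controls were at 379, 322 and 290 CPM and the cKO females at 171, 166 and 136. The oocytes did not overlap, with cKO oocytes between 107 and 242 CPM (median 168) and controls between 256 and 408 (median 322). The difference was 2.09-fold (log2 fold change -1.07, SE 0.15, adjusted p = 0.000267). At polyA MII the controls were at 427, 384 and 369 CPM and the cKO females at 234, 234 and 226. MII eggs did not overlap either: cKO eggs lay between 162 and 272 CPM and controls between 331 and 438. Their log2 fold change was -0.77 (SE 0.15, adjusted p = 0.00337). These calls held under every other setting and with each female left out. At polyA GV the log2 fold change was -0.57 (SE 0.19, adjusted p = 0.0768), and without female V857 it was -0.91 (adjusted p = 0.0210). DESeq2 called it at -0.55 (adjusted p = 0.0382). In RiboMinus libraries the values were -0.35 at GV (SE 0.25, adjusted p = 0.551) and -0.80 at MII (SE 0.29, adjusted p = 0.122). All 4 RiboMinus MII cKO eggs, at 99.9 to 173 CPM, were below the 3 control eggs at 211 to 239. An antisense gene, Dnmt3aos, covers 0.8% of its exonic length, and the strand setting of the counting was not given in the sources used here.

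Dnmt3l, the cofactor of DNMT3A, was lower in cKO oocytes at polyA GV3h and higher at polyA MII. At polyA GV3h the controls were at 155, 137 and 127 CPM and the cKO females at 101, 92.9 and 89.4 (log2 fold change -0.56, SE 0.19, adjusted p = 0.0372). Leaving out V946, V983, V993, V951, V982 or V995 raised that adjusted p to between 0.0533 and 0.132. With library totals it was 0.195 and with DESeq2 size factors 0.0555. At polyA GV the log2 fold change of Dnmt3l was -0.45 (SE 0.23, adjusted p = 0.251), and without V888 it was -0.83 (adjusted p = 0.0464). At polyA MII the controls were at 78.2, 73.4 and 66.2 CPM and the cKO females at 97.9, 162 and 128. Single eggs overlapped, from 77.6 to 219 CPM in cKO eggs and from 41.9 to 93.9 in controls. Dnmt3l was higher there by 0.83 on the log2 scale (SE 0.19, adjusted p = 0.00703), and it was called with each of the 6 females left out. In RiboMinus MII eggs the control female was at 122 CPM and the cKO females at 97.4 and 121 (log2 fold change -0.16, SE 0.31, adjusted p = 0.758). Aire, on the opposite strand, covers 2.24% of the exonic length of Dnmt3l.

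Dnmt3b, another de novo enzyme, was called in 0 of the 5 genotype comparisons in the edgeR fit over all groups. Of these, 3 were at an unadjusted p under 0.05, and polyA MII was called by DESeq2. Dnmt3b was also called at polyA MII by edgeR with DESeq2 size factors and without V897. Its log2 fold change was below 0 in all 5, from -1.11 in RiboMinus MII eggs (SE 0.42, adjusted p = 0.135) to -0.18 in RiboMinus GV oocytes. In the RiboMinus MII eggs the cKO females were at 5.85 and 7.64 CPM and the control female at 14.5, with no overlap of eggs.

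Kdm1b, the histone demethylase needed for maternal imprints, was higher in cKO oocytes at polyA GV3h. There the controls were at 170, 121 and 167 CPM and the cKO females at 421, 235 and 423, all above the controls. The difference was 2.35-fold (log2 fold change 1.23, SE 0.29, adjusted p = 0.00542) and held with each female left out. At polyA GV the cKO females were at 503 and 253 CPM and the controls at 236 and 123. Its log2 fold change there was 1.08 (SE 0.35, adjusted p = 0.071). It was called with DESeq2 (adjusted p = 0.0203), with library totals (0.042), without a filter (1.01e-05) and without V888 (1.49, adjusted p = 0.0166). In RiboMinus GV oocytes it was 0.67 (SE 0.26, adjusted p = 0.296), with cKO females at 321 and 482 CPM and controls at 253 and 253. At MII the genotypes lay close to each other, with log2 fold changes of -0.012 (SE 0.28) in polyA and -0.24 (SE 0.32) in RiboMinus eggs. Exons of Dek on the opposite strand cover 9.19% of the exonic length of Kdm1b, and how much their reads add to its counts was not tested.

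Tet3, the oxidase of the zygotic genome, was lower in polyA cKO oocytes at GV3h. There the controls were at 1218, 1304 and 1111 CPM and the cKO females at 701, 701 and 593. Oocytes did not overlap, with cKO oocytes between 382 and 910 CPM (median 703) and controls between 1030 and 1407 (median 1217). The log2 fold change was -0.86 (SE 0.16, adjusted p = 0.00145), called under every other setting and with each female left out. At polyA GV the cKO females were at 1026 (V857) and 637 (V888) CPM and the controls at 1043 and 1115. Tet3 was not called there in the fit over all groups (log2 fold change -0.38, SE 0.20, adjusted p = 0.266). Nor was it called at RiboMinus GV (-0.10, SE 0.25, adjusted p = 0.906). At polyA MII controls were at 1966, 2083 and 1951 CPM and cKO females at 1680, 1168 and 1579, each below each control. This log2 fold change was -0.44 (SE 0.16, adjusted p = 0.0703), and it was called with DESeq2 (0.0236), its size factors (0.0401), the compared groups alone (0.0407) and no filter (0.0386). In RiboMinus MII eggs Tet3 lay the other way, at 3736 and 2305 CPM in cKO females and 2092 in the control female (log2 fold change 0.53, SE 0.32, adjusted p = 0.31). Without V1167 it was 0.84 (adjusted p = 0.0494). The higher cKO value rests on the deepest library, at 4281 CPM, while the other 3 cKO eggs were between 2303 and 2450.

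Dppa3, the protector of the maternal genome, differed in RiboMinus MII eggs. The control female was at 1250 CPM and the cKO females at 414 and 378, and eggs did not overlap (1183 to 1246 CPM in controls, 368 to 590 in cKO). The difference was 3.16-fold (log2 fold change -1.66, SE 0.23, adjusted p = 0.0134). It was called under every other setting and with each cKO female, cKO egg or control egg left out. In polyA MII eggs the controls were at 2679, 2192 and 1853 CPM and the cKO females at 1994, 2788 and 2271, overlapping, with a log2 fold change of 0.069 (SE 0.17, adjusted p = 0.819). It was -0.37 at polyA GV (SE 0.21, adjusted p = 0.304), and it was not called at polyA GV3h or RiboMinus GV either. The difference between library types was 1.69 on the log2 scale (SE 0.30, adjusted p = 0.00136), in the test added after the values had been seen. Dppa3 and Dnmt1 were the 2 members called in that test, both higher in polyA, where 9.43% of genes were called (5.78% higher and 3.65% lower). Tet3 was at -1.01 in it (SE 0.32, adjusted p = 0.053) and was called with DESeq2 (0.00601), its size factors (0.0228), library totals (0.0304) and no filter (0.00839). The same test at GV called 0 members by edgeR, with 0 at an unadjusted p under 0.05, and 0.00404% of genes.

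Trim28, the corepressor that ZFP57 recruits, was the member called most often. At polyA GV the controls were at 75.5 and 71.5 CPM and the cKO females at 167 and 141. The difference was 2.09-fold (log2 fold change 1.07, SE 0.21, adjusted p = 0.00923). Without control female V856 the adjusted p was 0.0578, and without V889 it was 0.116, at log2 fold changes of 1.10 and 1.04. With the compared groups alone it was 0.144. At polyA GV3h the controls were at 85.2, 94.2 and 87.7 CPM and the cKO females at 167, 111 and 197 (log2 fold change 0.83, SE 0.17, adjusted p = 0.0026). That call held with each female left out. At polyA MII the controls were at 153, 164 and 187 CPM and the cKO females at 281, 234 and 255 (log2 fold change 0.61, SE 0.17, adjusted p = 0.0212). It was lost without V841 (adjusted p = 0.0712), V836 (0.0669) or V853 (0.0587).

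RiboMinus libraries gave Trim28 differences of the same direction. At GV the controls were at 215 and 162 CPM and the cKO females at 299 and 467. The log2 fold change was 1.02 (SE 0.28, adjusted p = 0.168), and 1.31 without V1126 (adjusted p = 0.0409). It was called with DESeq2 (0.0213) and without a filter (0.00545). At MII the control female was at 70.4 CPM and the cKO females at 172 and 206, and eggs did not overlap (60.1 to 86.2 CPM in controls, 156 to 220 in cKO). The difference was 2.68-fold (log2 fold change 1.42, SE 0.36, adjusted p = 0.0481). The adjusted p passed 0.05 without female V1167 (0.0574), without any of the 4 cKO eggs (0.0533 to 0.0933) and without the third control egg (0.0509).

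Zfp57, the zinc finger protein that binds methylated imprints, was higher in polyA MII cKO eggs. Controls were at 613, 535 and 552 CPM and cKO females at 784, 855 and 1080, and no cKO egg (690 to 1391 CPM) was as low as any control egg (402 to 681). Zfp57 differed by 0.68 on the log2 scale (SE 0.18, adjusted p = 0.0149). Without V897 it was 0.53 (adjusted p = 0.0679) and without V853 it was 0.64 (adjusted p = 0.0511). At polyA GV3h the groups overlapped, with controls at 1213, 1255 and 1041 CPM and cKO females at 1192, 1017 and 1275 (log2 fold change -0.010, SE 0.18). At polyA GV the log2 fold change was 0.14 (SE 0.22, adjusted p = 0.761). In RiboMinus eggs the log2 fold change was -0.16 at GV and 0.21 at MII, with neither called.

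Counted over single oocytes, 0 members had ranges that did not overlap between genotypes at polyA GV, where 4.9% of genes had such ranges. At polyA GV3h these were 2 members (Dnmt3a and Tet3, both lower), beside 9.96% of genes. At polyA MII they were 3 (Dnmt3a lower, Dnmt1 and Zfp57 higher), beside 2.98%. In RiboMinus libraries they were 0 members at GV, beside 1.6%, and 6 at MII, beside 26.3%. The 6 were Dnmt1, Dnmt3a, Dnmt3b and Dppa3, lower, and Tet3 and Trim28, higher. Counted over the females' sums, 6 members did not overlap at polyA GV (2 higher and 4 lower), 8 at GV3h (2 and 6) and 7 at MII (4 and 3), beside 52.1%, 51.4% and 32.8% of genes. The RiboMinus counts were 6 at GV (2 and 4) and 9 at MII (2 and 7), beside 56.6% and 71.5%.

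**Figure D3:**
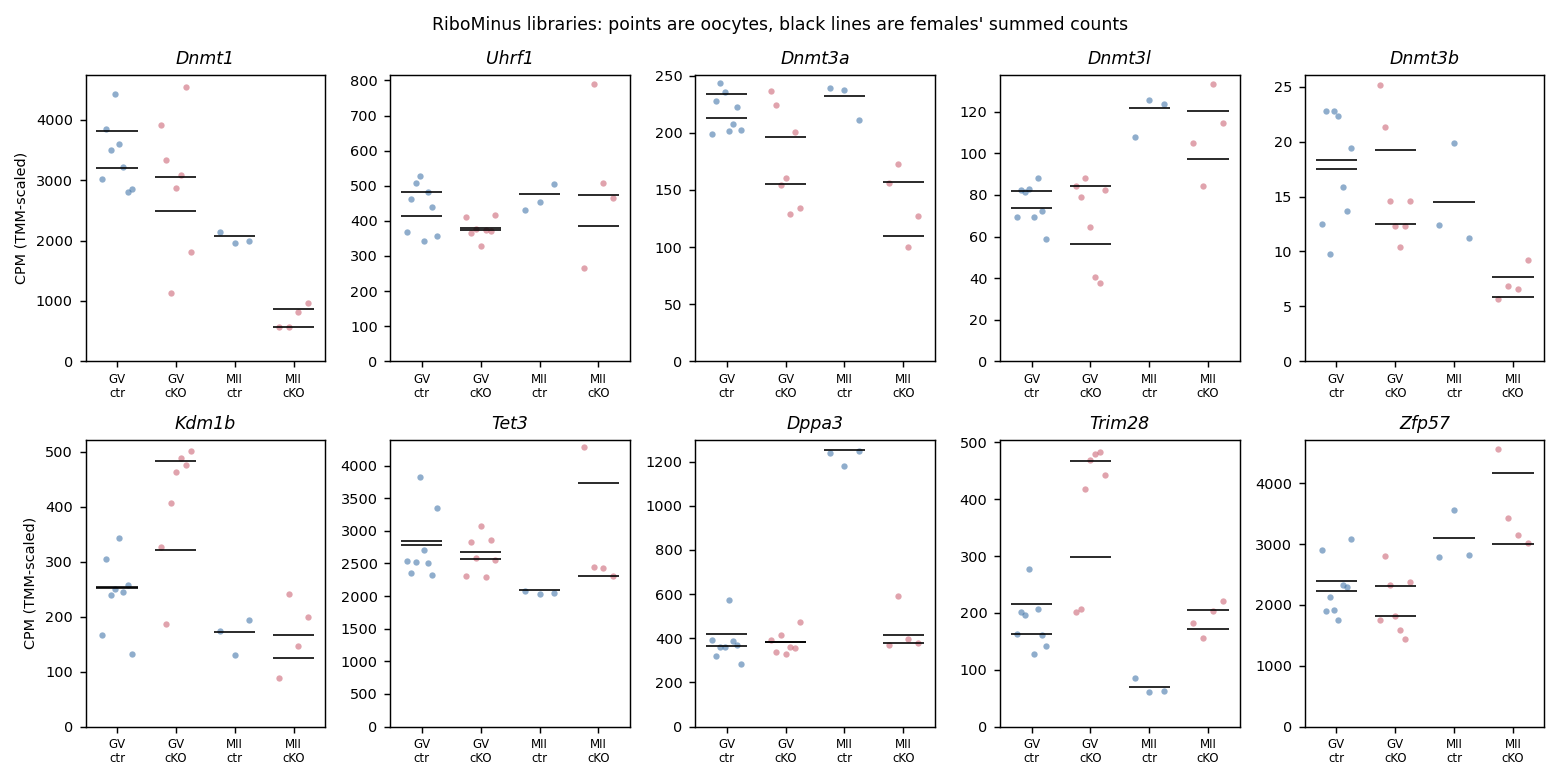
Levels of the 10 genes in RiboMinus libraries, as CPM on linear axes that start at 0, for control (blue) and cKO (red) oocytes at GV and MII. Points are oocytes and black lines are the females' summed counts, scaled among themselves; MII controls are 3 eggs of 1 female, in which Dppa3 lay at 1183 to 1246 CPM and above all other groups.

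Females of 1 group also differed from each other. In polyA GV cKO oocytes 5 members had oocyte ranges that did not overlap between V857 (5 oocytes) and V888 (10 oocytes), as did 8.37% of genes. Dnmt1 lay between 1726 and 2971 CPM in V857 and between 847 and 1617 in V888. Uhrf1 and Tet3 were likewise higher in V857, at 1088 to 1333 and 965 to 1183 CPM, than in V888, at 615 to 950.9 and 488 to 836.5. Zfp57 and Dnmt3l went the other way, at 727 to 1023 and 53.0 to 99.5 CPM in V857 and at 1327 to 1700 and 106 to 154 in V888. In polyA GV controls 5 members were apart between V856 and V889 (Dnmt1, Dnmt3b, Uhrf1, Dppa3 and Kdm1b), beside 16.1% of genes. In RiboMinus GV cKO oocytes 2 members were apart between V1126 and V1131 (Trim28 and Kdm1b), beside 15.8% of genes, and in RiboMinus GV controls 0 were apart between V1132 and V1133, beside 2.88%. In RiboMinus MII cKO eggs 6 were apart between V1166 and V1167, beside 36.8%, with 2 eggs in each.

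The next question was how the messages change as oocytes mature. Over the first 3 h of culture no change was called in polyA libraries. In controls and in cKO oocytes 0 members were called by edgeR from GV to GV3h, with 0 at an unadjusted p under 0.05 and 0 called by DESeq2, and 0% of all genes were called, with 425 and 373 genes at an unadjusted p under 0.05. The member changes ran from -0.23 (Kdm1b) to 0.28 (Trim28) in controls and from -0.32 (Tet3) to 0.29 (Dppa3) in cKO oocytes on the log2 scale.

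From GV to MII the members split. In polyA controls 7 were called, 4 higher and 3 lower, where 42.5% of genes were called (16.8% higher and 25.7% lower). Dnmt3b rose by 1.23 (SE 0.26, adjusted p = 0.00114), Trim28 by 1.19 (SE 0.20, adjusted p = 0.000139), Tet3 by 0.89 (SE 0.19, adjusted p = 0.00106) and Uhrf1 by 0.50 (SE 0.18, adjusted p = 0.0367) on the log2 scale. Dnmt1 fell by 1.33 (SE 0.23, adjusted p = 0.000213), Zfp57 by 0.86 (SE 0.19, adjusted p = 0.00186) and Dnmt3l by 0.80 (SE 0.21, adjusted p = 0.00517). Dnmt3a was at 0.43 (SE 0.17, adjusted p = 0.0542) and was called with the compared groups alone (0.0304), DESeq2 (0.0096) and its size factors (0.0194). Dppa3 was at 0.36 (SE 0.19, adjusted p = 0.144) and was called without a filter (0.0479). In polyA cKO oocytes 5 were called, all higher with TMM factors, against 44.7% of genes (18.1% higher and 26.6% lower). These were Dnmt3b, at 1.24 (adjusted p = 0.00101), Tet3 at 0.83 (0.00184), Dppa3 at 0.80 (0.00338), Trim28 at 0.74 (0.00559) and Uhrf1 at 0.48 (0.0401). Dnmt1 was at 0.22 there (SE 0.24, adjusted p = 0.468). Without V857 it was 0.79 (adjusted p = 0.0145).

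These stage values depend on scaling. The median of all genes was -0.26 in controls and -0.33 in cKO oocytes with TMM factors, and -0.69 and -0.85 when libraries were scaled by their totals alone. Of the genes called, 39.5% were higher in controls and 40.5% in cKO oocytes with TMM factors, and 21.4% and 20.0% with totals. With totals Dnmt3b, Trim28, Dnmt1, Zfp57 and Dnmt3l kept their control calls, while Uhrf1 (0.069, adjusted p = 0.79) and Tet3 (0.46, adjusted p = 0.0502) lost theirs. In cKO oocytes Tet3, Dppa3 and Trim28 lost their calls with totals (log2 fold changes of 0.31, 0.28 and 0.22), and Uhrf1 turned to -0.038. Zfp57 (-0.85, adjusted p = 0.00146) and Kdm1b (-1.22, adjusted p = 0.00443) were called lower there, so with totals the cKO calls were 1 higher (Dnmt3b) and 2 lower. With TMM factors they were at -0.32 and -0.71. Without a filter Kdm1b was called at -0.70, without V888 at -1.12 (adjusted p = 0.0122), and Zfp57 without V857 at -0.68 (adjusted p = 0.00854). Uhrf1 also lost its control call without V889 (log2 fold change 0.35), V836 (0.47) or V896 (0.45). Its cKO call was lost with the compared groups alone (adjusted p = 0.116). That call was also lost without V888 (log2 fold change 0.17), V841 (0.50) or V897 (0.39). Dppa3 lost its cKO call without V857 (log2 fold change 0.58) and Trim28 without V888 (0.61).

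**Figure D4:**
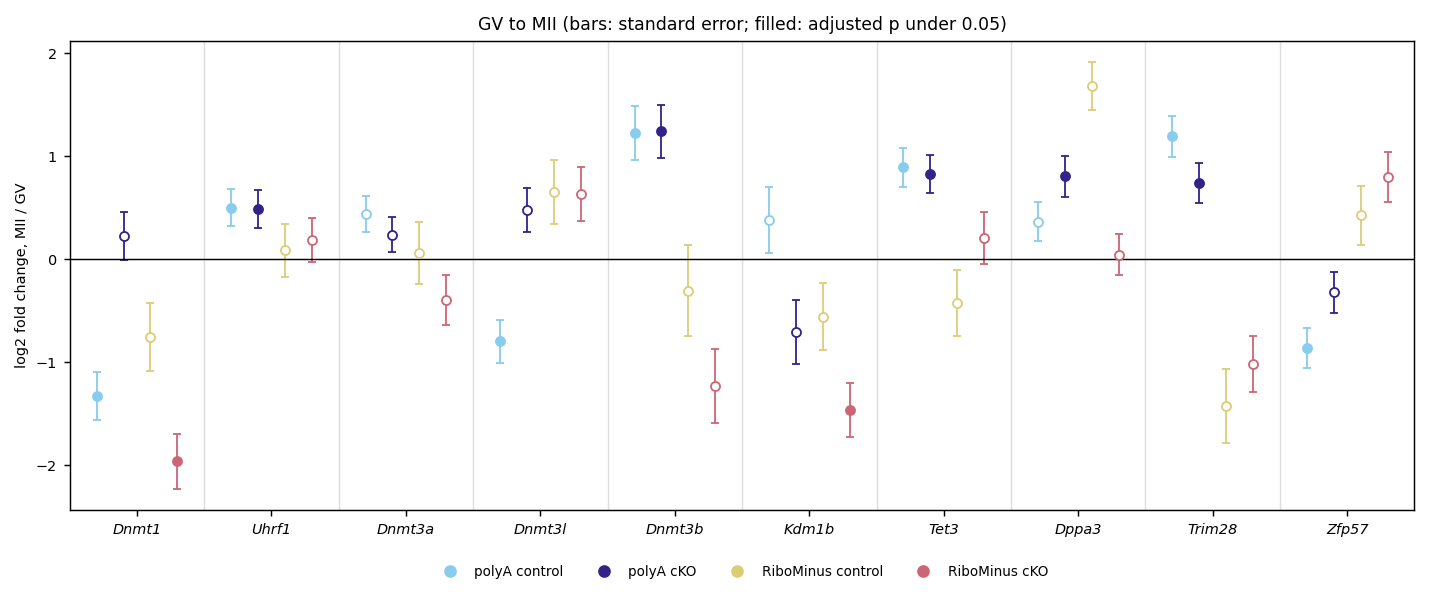
Log2 fold change of MII over GV for each gene in polyA and RiboMinus libraries of controls and cKO oocytes. Bars are standard errors and filled points have an adjusted p under 0.05; the Trim28 points lie at 1.19 and 0.74 in polyA libraries and at -1.42 and -1.02 in RiboMinus libraries.

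The stage change itself differed between genotypes for 2 members in polyA libraries, where 1.94% of genes were called (81.8% of them higher, and 68.9% with library totals). Dnmt1 fell by 1.33 in controls and was at 0.22 in cKO oocytes, a difference of 1.55 on the log2 scale (SE 0.33, adjusted p = 0.0266). Dnmt3l gave 1.28 (SE 0.30, adjusted p = 0.0386), with -0.80 in controls and 0.48 in cKO oocytes (adjusted p = 0.0781). That cKO change was 0.86 without V888 (adjusted p = 0.00876) and 0.64 without V841 (0.0223). Both interaction calls were lost with the compared groups alone (adjusted p = 0.125 and 0.178), where 0.0722% of genes were called. That of Dnmt3l was also lost with DESeq2 size factors (0.0616) and library totals (0.0548). Both could be lost by leaving out 1 female. The adjusted p of Dnmt1 passed 0.05 without V856 (0.0958), V889 (0.0745), V841 (0.0534), V853 (0.0524) or V896 (0.0517). That of Dnmt3l passed it without V857 (0.18), V856 (0.102), V889 (0.149), V842 (0.0843), V897 (0.059), V853 (0.0629) or V896 (0.0673). The Dnmt1 difference stayed between 1.40 and 1.70 in those 5 settings.

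In RiboMinus controls 0 members were called from GV to MII by edgeR, and 0.00787% of genes were called. At an unadjusted p under 0.05 there were 3, beside 3834 of 25425 genes, and DESeq2 called 2, beside 6.37%. With the compared groups alone 7 members and 27.9% of genes were called. In that setting the MII arm is 1 female, V1145, and the spread comes from the 2 GV control females only, so these calls do not test the spread between MII control females. Dppa3 gave 1.68 (SE 0.23, adjusted p = 0.0645), Trim28 gave -1.42 (SE 0.36, adjusted p = 0.139) and Dnmt1 gave -0.76 (SE 0.33, adjusted p = 0.323). In RiboMinus cKO oocytes 2 members were called, both lower, against 2.32% of genes (1.71% lower). Dnmt1 fell by 1.96 (SE 0.27, adjusted p = 0.022), from 2486 and 3050 CPM at GV to 560 and 860 at MII. Kdm1b fell by 1.46 (SE 0.27, adjusted p = 0.0382). Both were lost with the compared groups alone (adjusted p = 0.121 and 0.134), where 0% of genes were called, and Kdm1b with library totals (0.0523). Dnmt1 lost its call without V1131 (0.0887), V1166 (0.0549) or the first MII cKO egg (0.0506). Kdm1b lost its call without V1131 (0.131), V1166 (0.094) or any of the first 3 MII cKO eggs (0.138, 0.0623 and 0.0555).

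The change from GV to MII was then compared between library types, to see which messages moved differently in oligo-dT and random-primed libraries. In controls 6 members were called, 3 higher in polyA and 3 lower, where 22.8% of genes were called (10.9% and 11.9%). Trim28 differed most among the members, by 2.78 (SE 0.40, adjusted p = 1.99e-05): its polyA females went from 75.5 and 71.5 CPM to 153, 164 and 187, while RiboMinus females went from 215 and 162 CPM to 70.4. Dnmt3b differed by 1.70 (SE 0.47, adjusted p = 0.0104) and Tet3 by 1.48 (SE 0.34, adjusted p = 0.00257). Dnmt3l (-1.28, adjusted p = 0.0135), Dppa3 (-1.15, adjusted p = 0.00898) and Zfp57 (-1.12, adjusted p = 0.0254) differed the other way. Dppa3 showed a polyA change of 0.36 beside a RiboMinus change of 1.68. Of the 6, Trim28 and Tet3 held in every setting. Dnmt3b was lost with library totals (1.16, adjusted p = 0.0743), Dnmt3l without V1133 (-1.22, adjusted p = 0.0533), Dppa3 without V889 (-0.92, adjusted p = 0.0613), and Zfp57 without V889 (adjusted p = 0.0817), V1132 (0.0808) or V1133 (0.054). With the 3′ ends shown above, Tet3 was the member of these 6 that held TTTTAT or TTTTAAT. Trim28, Dnmt3b, Dppa3 and Zfp57 held the polyadenylation signal letters without them, and Dnmt3l held neither. Dnmt1 (-0.40, adjusted p = 0.542) and Dnmt3a (0.54, adjusted p = 0.239), which also held TTTTAT, were not called in this comparison.

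In cKO oocytes 6 members were called in the same comparison, 5 higher and 1 lower, against 20.7% of genes (11.6% and 9.17%). Dnmt3b differed by 2.66 (SE 0.41, adjusted p = 7.93e-05), Dnmt1 by 2.38 (SE 0.36, adjusted p = 5.77e-05) and Trim28 by 1.94 (SE 0.33, adjusted p = 0.000227). For Dnmt1 the polyA change was 0.22 and the RiboMinus change -1.96. In controls its difference between library types was -0.40 (SE 0.39, adjusted p = 0.542), with a polyA change of -1.33 and a RiboMinus change of -0.76. Dppa3 (0.93, adjusted p = 0.0216), Dnmt3a (0.82, adjusted p = 0.038) and Zfp57 (-0.95, adjusted p = 0.0397) were also called. The median of all genes in this comparison was -0.24 with TMM factors and -0.93 with library totals, and with totals Dppa3 (0.23) and Dnmt3a (0.11) were no longer called. With the compared groups alone Dppa3, Dnmt3a and Zfp57 lost their calls (adjusted p = 0.138, 0.203 and 0.145). Dppa3 and Dnmt3a also lost theirs with DESeq2 (0.054 and 0.0855) and its size factors (0.0716 and 0.116), and Dnmt3a without a filter (0.122). Dnmt3a lost its call without V888, V841, V842, V897, V1126, V1167 or the first MII cKO egg (0.59 to 0.82, adjusted p 0.0530 to 0.179). Dppa3 lost it without V857, V842, V1167 or that egg (0.68 to 0.87, adjusted p 0.0529 to 0.135). Zfp57 lost it without V888, V841, V842, V1131, V1166 or that egg (-0.89 to -0.43, adjusted p 0.0748 to 0.384). Genes higher in polyA made up 28.2% of control calls and 20.7% of cKO calls with totals, against 47.7% and 55.8% with TMM. Library protocol, priming and females differ together in both comparisons and cannot be told apart.

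Other genes of the pathway were counted from 6 lists of 46 genes, of which 44 passed the filter in polyA and 45 in RiboMinus libraries. Between genotypes 2 were called higher and 3 lower at polyA GV, beside 3.47% and 3.91% of all genes. PolyA GV3h gave 9 higher and 7 lower, beside 12.5% and 12.7%, and polyA MII 5 higher and 2 lower, beside 11.9% and 6.99%. In RiboMinus libraries 1 was called higher and 0 lower at GV, beside 0.0275% and 0.00393%, and 2 were called higher and 2 lower at MII, beside 3.61% and 3.69%. Their median log2 fold change was 0.24, 0.17 and 0.20 in the polyA comparisons and 0.25 and -0.027 in RiboMinus, beside the medians of all genes given above. From GV to MII in polyA controls 15 were called higher and 9 lower, beside 16.8% and 25.7% of all genes, with a median of 0.081 beside -0.26 over all genes. At GV3h, the stage with most genotype calls, the maintenance list had 3 higher and 2 lower of 8, the de novo and histone list 1 and 1 of 9, the removal list 2 and 1 of 8 tested, the methyl-CpG readers 2 and 0 of 6 tested, imprint protection 1 and 2 of 9, and methyl donor supply 0 and 1 of 4.

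By the naming rule 4 genes of these lists are described, from the fit over all groups alone. Whether their calls hold in other settings or with a female left out was not tested. Tet2, another methylcytosine oxidase, was higher in cKO oocytes in 4 of 5 comparisons, with log2 fold changes of 1.62 at polyA GV, 1.61 at polyA GV3h, 2.46 at RiboMinus GV and 2.24 at RiboMinus MII (adjusted p = 0.0146, 0.00104, 0.0389 and 0.0165). Uhrf2, a relative of Uhrf1, was higher in 3 of 5, at 2.74 (SE 0.79) at polyA GV, 3.85 (SE 0.70) at polyA GV3h and 3.13 (SE 0.78) at RiboMinus MII (adjusted p = 0.0464, 0.00113 and 0.0481). Dmap1, which encodes a partner of DNMT1, fell by 3.44 (SE 0.14, adjusted p = 1.85e-10) from GV to MII in polyA controls and gave -0.83 (SE 0.36, adjusted p = 0.321) in RiboMinus controls. Mbd3, of the methyl-CpG binding domain family, fell by 2.54 (SE 0.37, adjusted p = 4.06e-05) in polyA controls and gave 0.0075 (SE 0.28) in RiboMinus controls.

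For 3 members, the genes with the most similar profile over the 10 group means were listed among 19030 genes. Pearson's r was taken on the log2 scale after each gene was centred within each library type. Groups share libraries' protocol and stage, so these are descriptions. Tet3 was most like Gbf1 (r = 0.988) and Ern1 (r = 0.987), Dppa3 like Rab11a (r = 0.988) and Ssb (r = 0.973), and Dnmt1 like Acad10 (r = 0.962) and Kif2c (r = 0.953).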

How the data were processed

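Single mouse oocytes were sequenced as polyA or RiboMinus libraries. The deposited files hold raw read counts per Ensembl gene for each oocyte. Per the submitters' processing notes, cutadapt 2.5, STAR 2.7.2a, SAMtools 1.9, HTSeq 0.9.1 and the mm10 build were used, among other tools. The strand and multi-mapping settings and the annotation release are not given in the sources used here. Lines that name no gene were left out: reads outside any feature were 5.86 to 14.2% in polyA and 8.34 to 12.4% in RiboMinus libraries, and ambiguous reads 2.07 to 3.19%. Symbols, exon lengths and 3′ ends came from GENCODE M21 (GRCm38), which held 55394 of 55573 identifiers.

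Counts were summed per female and tested with edgeR 4.0.16 (filterByExpr, TMM, quasi-likelihood F test, two-sided). All polyA groups entered 1 fit and all RiboMinus groups another, with a joint fit for contrasts between library types, so groups share 1 estimate of the spread. P-values were adjusted by Benjamini-Hochberg over 19242, 25425 and 24777 genes, with a call at an adjusted p under 0.05. Nothing in the labels says whether females shared a litter or day. CPM were scaled with TMM within a library type. The code was tested on simulated data. Alternatives were single oocytes as replicates, the compared groups alone, DESeq2 1.42.0, its size factors, library totals, no filter, and leaving out each female, or each egg where a group had 1 or 2 females at RiboMinus MII. Precision is limited by the 1 to 3 females per group. Ribosomal RNA libraries were not used.

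All 10 members were tested in every comparison, and the text gives the values of those called and of others where they bear on a result. Pathway genes are named when called in the same direction in at least 3 genotype comparisons, or at 4-fold or more in polyA controls from GV to MII. Similar profiles were ranked on log2(mean CPM per group + 0.1), with each gene centred within each library type. The members, lists and tests were chosen with earlier results of these data known. The comparisons of genotype differences between library types were added after seeing the data.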

Additional observations from a re-analysis of the deposited data

Results flagged for a closer look

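Of 60 sets of 4 to 8 oocytes (6 groups for each of the 10 genes), 6 held an oocyte far from the rest, where chance gives about 1 in 20 sets of independent samples. Oocytes of 1 female are not independent, so that share is no exact reference here. Dnmt1 was at 1283 CPM in oocyte 1 of polyA MII control female V836, beside 534 to 867 in the other eggs. Dppa3 was at 3516 CPM in oocyte 2 of the same female, beside 1631 to 2513. Uhrf1 was at 1491 CPM in oocyte 2 of polyA GV3h control female V951, beside 1183 to 1321. In RiboMinus libraries Dppa3 was at 574 CPM in oocyte 1 of GV control female V1133, beside 285 to 392, and at 590 CPM in oocyte 2 of MII cKO female V1166, beside 368 to 397. Tet3 was at 4281 CPM in oocyte 1 of V1166, the deepest library, beside 2303 to 2450.

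Tested differences between effects are given on the log2 scale. The GV to MII change differed between genotypes in polyA libraries for Dnmt1 (1.55) and Dnmt3l (1.28). The genotype difference at MII differed between library types for Dnmt1 (2.84) and Dppa3 (1.69). The GV to MII change differed between library types in controls for Trim28 (2.78), Dnmt3b (1.70), Tet3 (1.48), Dnmt3l (-1.28), Dppa3 (-1.15) and Zfp57 (-1.12). In cKO oocytes it did so for Dnmt3b (2.66), Dnmt1 (2.38), Trim28 (1.94), Zfp57 (-0.95), Dppa3 (0.93) and Dnmt3a (0.82).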

How the results depend on the processing

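Of 45 called values, the number still called was 45 with each oocyte as a replicate, 35 with the compared groups alone, 43 with DESeq2, 41 with its size factors, 32 with library totals and 44 without a filter; leaving out 1 female or egg kept 286 of 361. Uhrf1 from GV to MII in polyA cKO oocytes reversed with library totals, to -0.038. For values not called in the main fit, 149 of 1509 alternative values had the other sign, whether or not the alternative was called. The causes were not tested. Fits with oocytes as replicates treat oocytes of 1 female as independent, so their p-values are too small. Counts of called members that moved are given with the share of all genes called in the same setting. At polyA GV the 1 (7.38% of genes) became 6 with oocytes (35.8%), 0 with compared groups alone (0.00555%), 3 with DESeq2 (14.2%), 2 with library totals (7.38%) and 2 without a filter (5.94%). At RiboMinus GV the 0 (0.0315%) became 2 with oocytes (25.8%), 1 with DESeq2 (6.16%) and 1 without a filter (4.74%), and at RiboMinus MII the 3 (7.3%) became 5 with oocytes (34.6%). From GV to MII, the 5 in polyA cKO (44.7%) became 8 with oocytes (71.7%) and 3 with totals (48.6%). The 0 in RiboMinus controls (0.00787%) became 3 with oocytes (19.4%), 7 with compared groups alone (27.9%), 2 with DESeq2 (6.37%) and 2 without a filter (3.09%). The 2 in RiboMinus cKO (2.32%) became 6 with oocytes (22.4%), 0 with compared groups alone (0%), 5 with DESeq2 (11.7%), 1 with totals (1.29%) and 4 without a filter (7.52%). The 2 in the polyA interaction (1.94%) became 4 with oocytes (16.9%), 0 with compared groups alone (0.0722%), 1 with DESeq2 size factors (1.6%) and 1 with totals (1.69%). The 6 in the cKO comparison of library types (20.7%) became 3 with compared groups alone (12.2%).

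With 1 female or egg left out, the count ran from 0 to 3 at polyA GV, 4 to 4 at GV3h and 3 to 5 at MII, and from 0 to 1 at RiboMinus GV and 2 to 3 at MII. It was 0 for both changes from GV to GV3h. From GV to MII it ran from 6 to 7 in polyA controls, 4 to 7 in polyA cKO, 0 to 0 in RiboMinus controls, 0 to 3 in RiboMinus cKO and 0 to 3 for the interaction. Between library types it ran from 4 to 7 in controls and 4 to 8 in cKO. No paired analysis was possible because the labels do not say that any female of 1 group is the pair of a female of another, and the oocyte numbers in the titles count within a female. Some female numbers adjoin between groups, but no label gives that a meaning. RiboMinus MII controls are 1 female, so no setting tests their spread between animals.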
